A study of Homo sapiens with 8 samples.

Results

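The genes described here are 10 core genes of the circadian clock, chosen by their symbols. CLOCK and ARNTL (also named BMAL1) form the activator arm, and PER1, PER2, PER3, CRY1 and CRY2 form the repressor arm. NR1D1 and NR1D2 encode the REV-ERB receptors, and DBP is an output gene. All 10 were found among the 23391 genes of the count table, and all 10 passed the filter on low counts (at least 1 cpm, the counts scaled to library size, in at least 2 of 8 libraries), which 13856 genes passed.

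RNA-Seq counts came from 8 libraries of DU145, a human prostate cancer cell line, with 2 biological replicates in each of 4 groups. DU145-pc3.1 cells carried the empty pcDNA3.1-zeo (+) vector and DU145-Esrrb cells the same vector with Esrrb, the estrogen related receptor beta. Both were pools of stably transfected cells rather than single clones, kept under zeocin selection for 3 weeks and used at passages 5 to 6. Each pool was either given vehicle, called untreated here, or 3 μM DY131, a synthetic ligand of Esrrb and of the related receptor Esrrg (groups DU145-pc3.1+DY131 and DU145-Esrrb+DY131). All dishes were confluent, in phenol-red free medium with charcoal-stripped serum. The length of the DY131 treatment and the hour of harvest were not given in the sources used here, and no step to synchronize the cells was named. The values are therefore levels at 1 time in each dish and say nothing of rhythm. Fewer cells with a transcript and less transcript per cell cannot be told apart in such bulk samples.

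In the clock of mammalian cells, the proteins CLOCK and ARNTL pair and bind E-boxes, the short sites through which they switch on the PER and CRY genes, NR1D1, NR1D2 and DBP. PER and CRY proteins accumulate, enter the nucleus and block the CLOCK and ARNTL pair, and their later breakdown lets a new cycle start. In a second loop, REV-ERB receptors repress ARNTL at sites called ROREs, where ROR receptors activate it, and DBP activates genes at D-boxes, where NFIL3 represses them. Most cell types, cancer lines included, express these genes, and the levels of most of these genes, though not of all, normally swing over the day.

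The 250 bases before and 50 bases after each annotated start site were read from RefSeq on GRCh38.p14, which gave 15 windows for the 10 genes. Each was searched on both strands for the E-box CACGTG, the D-box TTANNTAA, the cAMP response element TGACGTCA, the ERR response element TNAAGGTCA and the RORE. The last 2 share the letters GGTCA. Of all 35116 windows of this length, 7.26% held the E-box, 5.63% the D-box, 1.85% the cAMP response element, 0.951% the ERR response element and 0.316% the RORE. Among the 15 windows, 2 held an E-box, 4 a D-box, 3 a RORE and 0 the other motifs. The windows shown are that of ARNTL with a RORE, that of NR1D2 with the most motifs and the only one of DBP, because ARNTL and NR1D2 are the target and a receptor of the RORE loop and DBP had the largest change. Capitals mark the motif letters found in them.

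ARNTL, chr11:13277540-13277839, + strand: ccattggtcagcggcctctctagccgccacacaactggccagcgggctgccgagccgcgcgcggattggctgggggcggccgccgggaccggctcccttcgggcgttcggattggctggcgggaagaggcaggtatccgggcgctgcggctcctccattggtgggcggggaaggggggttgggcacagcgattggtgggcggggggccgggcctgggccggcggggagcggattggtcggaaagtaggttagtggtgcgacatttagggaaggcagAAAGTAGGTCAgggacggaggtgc

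NR1D2, chr3:23945871-23946170, + strand: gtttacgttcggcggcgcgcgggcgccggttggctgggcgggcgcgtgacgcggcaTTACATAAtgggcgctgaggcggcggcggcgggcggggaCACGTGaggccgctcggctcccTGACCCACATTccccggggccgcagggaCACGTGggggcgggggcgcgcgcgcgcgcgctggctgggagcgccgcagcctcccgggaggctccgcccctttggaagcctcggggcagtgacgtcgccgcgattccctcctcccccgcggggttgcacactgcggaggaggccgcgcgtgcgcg

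DBP, chr19:48637330-48637629, - strand: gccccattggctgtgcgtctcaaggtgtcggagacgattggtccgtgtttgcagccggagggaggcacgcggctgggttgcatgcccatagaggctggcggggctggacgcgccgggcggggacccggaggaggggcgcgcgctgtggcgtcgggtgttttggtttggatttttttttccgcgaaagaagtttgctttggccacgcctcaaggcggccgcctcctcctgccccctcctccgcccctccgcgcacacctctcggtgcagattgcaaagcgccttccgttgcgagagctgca

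The RORE of ARNTL began at base 27 after the start site. The NR1D2 window held a D-box from 194, E-boxes from 155 and 105 and, on the other strand, a RORE from 133 bases before the start, none of which overlapped. In the window of DBP none of these letters was found. A second ARNTL window held a D-box, a CLOCK window a RORE, the PER1 window an E-box, the PER2 window a D-box and 1 PER3 window 2 D-boxes. The windows of CRY1, CRY2 and NR1D1 held none. These matches are descriptions of letters, not of bound sites.

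Between 7858743 and 11551690 reads were counted on genes per library. ESRRB itself was counted 104 and 99 times in untreated and 105 and 143 times in DY131-treated DU145-Esrrb cells. In any DU145-pc3.1 library it was counted at most 3 times, so that all libraries went with their vector labels. These counts do not check the DY131 labels. In DU145-Esrrb cells ESRRB was higher with DY131 (mean 14.9 against 8.96 cpm, log2 fold change 0.74, edgeR's quasi-likelihood test, adjusted p = 0.00315). Its part in the DY131 responses was not tested. Of the epithelial markers, KRT8, KRT18, KRT19, EPCAM and CDH1 were at 62.3 cpm or more in every library. Of the androgen-responsive luminal markers, TMPRSS2 reached at most 0.130 cpm and KLK3 was at 0 in every library. DCN, CD3E and HBB, markers of fibroblasts and blood, were at 0 in every library, and COL1A1 was the only fibroblast, blood or endothelial marker above 0.747 cpm, at 2.74 to 5.70 cpm. The 2 DU145-pc3.1+DY131 libraries differed most from each other (chi-square per degree of freedom over genes 7.10, against 1.29 to 2.60 in the other groups). The main test nonetheless used a spread that all 4 groups share.

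The clock genes spanned a wide range of levels. Per kilobase of transcript, untreated DU145-pc3.1 cells had most ARNTL, at 11.8 ± 0.808 cpm per kb (SD, n = 2), and NR1D2, at 10.6 ± 0.666. NR1D1 followed at 5.42, CLOCK at 3.86, CRY1 at 2.53, DBP at 2.49, CRY2 at 1.97 and PER1 at 1.54 cpm per kb. PER3 at 0.384 and PER2 at 0.164 cpm per kb were lowest. In this order the ranges of the 2 libraries overlapped only between the neighbours CRY1 and DBP. In DU145-Esrrb+DY131 cells NR1D2 led with 19.0 cpm per kb, ahead of ARNTL at 7.82, and DBP had dropped below PER1, to 0.476. PER2 stayed last, at 0.129 cpm per kb. This order rests on the length of 1 GENCODE transcript per gene.

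**Figure D1:**
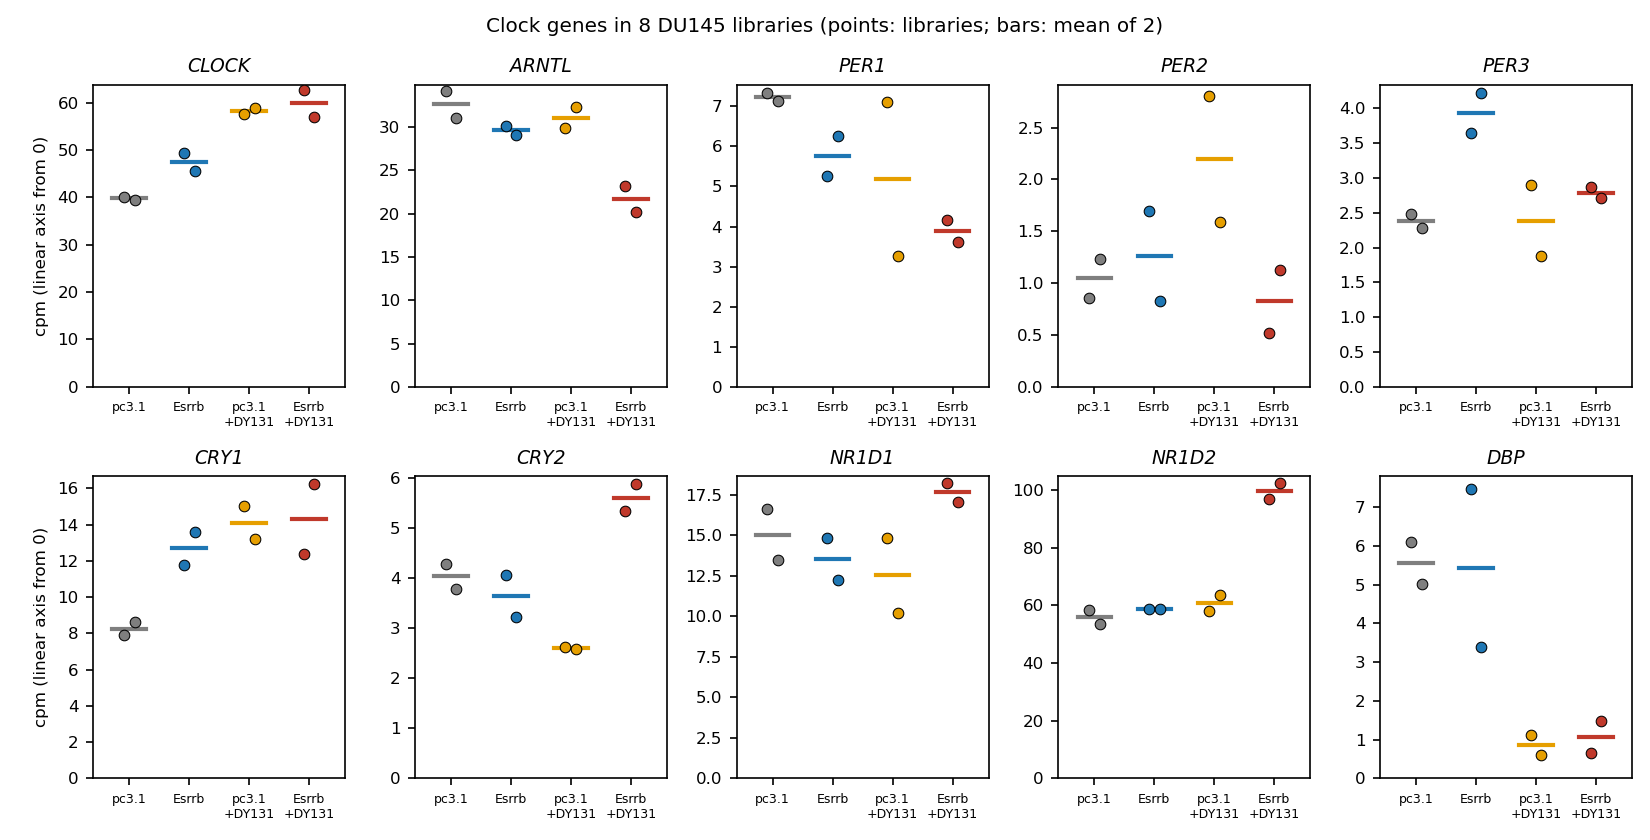
Each panel plots 1 clock gene, and the y axis is cpm from effective library sizes on a linear scale from 0, points are the 8 libraries and bars the mean of 2 libraries in each of the 4 groups. DBP lies between 3.40 and 7.46 cpm in the 4 untreated libraries and between 0.595 and 1.47 cpm in the 4 DY131-treated ones, and NR1D2 stands near 100 cpm only in DU145-Esrrb+DY131 cells (96.9 and 102.5 cpm).

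DY131 was first compared with vehicle in DU145-pc3.1 cells, which asks how the ligand acts on cells that hardly express Esrrb. The output gene DBP fell 6.34-fold, while CLOCK rose 1.47-fold and CRY1 1.71-fold. Thus 2 of the 10 clock genes rose, 1 fell and 7 did not pass the test (edgeR's quasi-likelihood F test, adjusted p under 0.05 after Benjamini-Hochberg adjustment over all 13856 genes). Of all genes tested, 37.4% were called, 18.9% higher and 18.5% lower. DBP was the only clock gene past a log2 fold change (log2FC) of 1 as well, against 4.19% of all genes. The median log2FC was -0.028 over the 10 genes and -0.0026 over all genes.

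In DU145-Esrrb cells, DY131 met cells with the receptor. DBP fell 5.002-fold here too and ARNTL 1.37-fold, while NR1D2 rose 1.70-fold, CRY2 1.54-fold and CLOCK 1.26-fold. Thus 3 clock genes rose, 2 fell and 5 did not pass the test, where 58.7% of all genes were called, 29.2% higher and 29.5% lower. Past both thresholds was again DBP alone, against 12% of all genes. The median log2FC was -0.13 over the 10 genes and -0.0045 over all genes. The share of clock genes called was therefore near or below that of all genes in both cell pools.

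Esrrb without ligand was compared with the empty vector in untreated cells. CRY1 rose 1.53-fold and was the 1 clock gene called, while 9 were not, against 4.18% of all genes called 1.68% higher and 2.5% lower. No clock gene passed a log2FC of 1, which 0.577% of all genes did together with the adjusted p. This comparison shares the DU145-pc3.1 libraries with the first and the DU145-Esrrb libraries with the second, so the values are not independent of them. The 2 DY131 comparisons share no library.

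Whether DY131 acted differently in the 2 pools was tested by their difference (the interaction of DY131 with Esrrb in the same model). CRY2 and NR1D2 responded more upward in DU145-Esrrb cells, by log2 differences of 1.25 and 0.64, and ARNTL more downward, by -0.38. The other 7 clock genes did not pass. Of all genes, 33.7% passed this test, 16.1% higher and 17.6% lower. CRY2 also passed a log2 difference of 1, as 6.28% of all genes did.

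**Figure D2:**
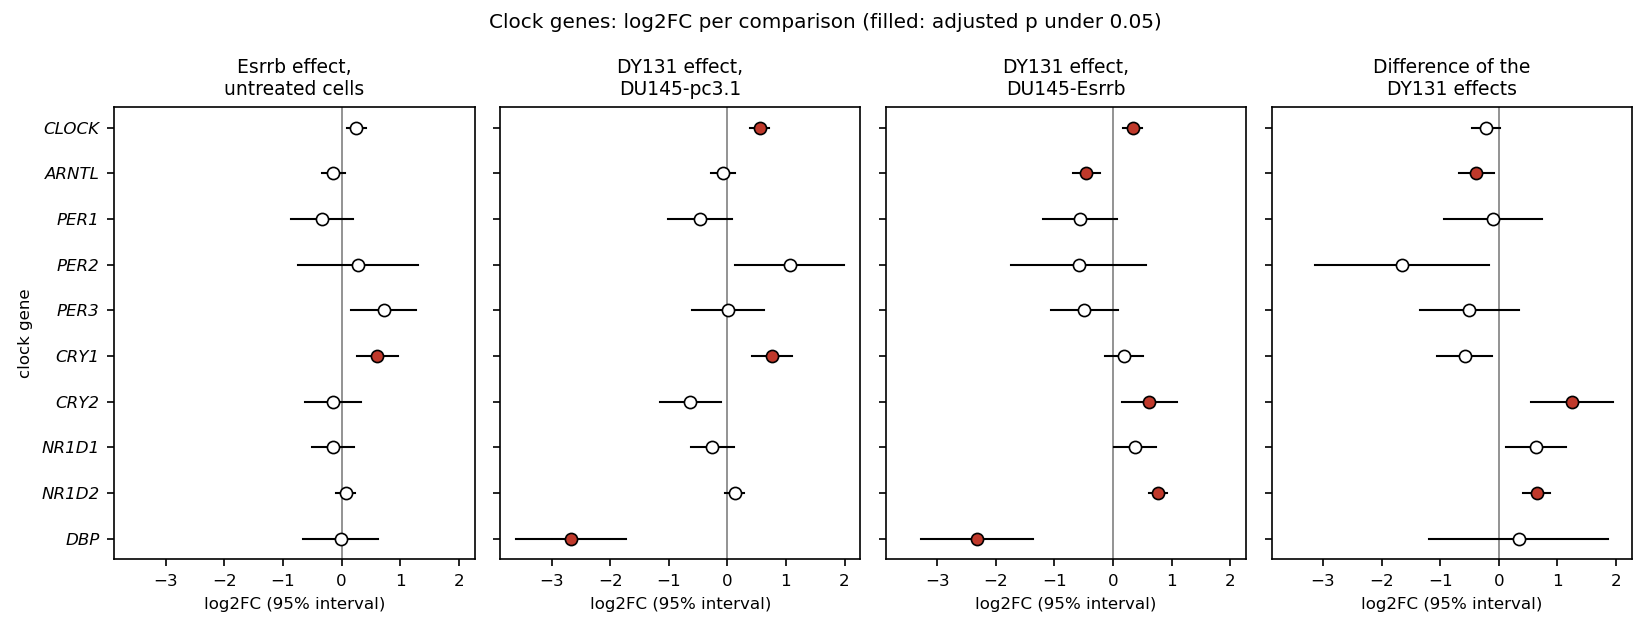
Points are log2FC of the 10 clock genes and lines their 95% intervals, in 4 panels for the Esrrb effect in untreated cells, the DY131 effect in each cell pool and the difference of the DY131 effects, and filled points have an adjusted p under 0.05. DBP lies at -2.66 and -2.32 in the DY131 panels, with intervals well below 0, and CRY2 lies on opposite sides of 0 in them (-0.63 and 0.62).

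In the activator arm, CLOCK, the DNA-binding partner of ARNTL, was at 40.0 and 39.5 cpm in DU145-pc3.1, 49.3 and 45.6 in DU145-Esrrb, 57.6 and 59.0 in DU145-pc3.1+DY131, and 62.7 and 57.1 in DU145-Esrrb+DY131 cells. All 4 DY131-treated libraries lay above all 4 untreated ones. The log2FC with DY131 was 0.55 ± 0.079 (SE) in DU145-pc3.1 cells (edgeR's quasi-likelihood test, adjusted p = 6.7e-05) and 0.33 ± 0.079 in DU145-Esrrb cells (edgeR, adjusted p = 0.00197). These responses differed by -0.22 (95% interval -0.46 to 0.018, edgeR, adjusted p = 0.145). With counts corrected for the length and GC content of transcripts, CLOCK was at 0.29 in DU145-pc3.1 cells (adjusted p = 0.00644 by edgeR) and at 0.16 in DU145-Esrrb cells (adjusted p = 0.0802 by edgeR). Between the untreated pools, CLOCK had a log2FC of 0.26 ± 0.080 (edgeR, adjusted p = 0.0954), with both DU145-Esrrb libraries above both controls. Without replicate 1 or replicate 2 of DU145-pc3.1+DY131, which take no part in this comparison but in the shared spread, its adjusted p by edgeR was 0.0204 or 0.0234.

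ARNTL, the other activator, was at 34.2 and 31.1 cpm in DU145-pc3.1, 30.1 and 29.1 in DU145-Esrrb, 29.9 and 32.3 in DU145-pc3.1+DY131, and 23.2 and 20.2 in DU145-Esrrb+DY131 cells. The last group lay below the other 6 libraries, which were close to each other. The log2FC with DY131 was -0.45 ± 0.11 in DU145-Esrrb cells (edgeR, adjusted p = 0.00168) and -0.070 ± 0.096 in DU145-pc3.1 cells (edgeR, adjusted p = 0.603). The difference of -0.38 had an adjusted p of 0.0489 (edgeR). It lost the call with DESeq2 (-0.39, adjusted p = 0.205) and, with adjusted p by edgeR of 0.074 to 0.212, when 1 of 5 libraries was left out (replicate 2 of DU145-pc3.1, -0.31; either DU145-Esrrb library, -0.36 and -0.42; replicate 2 of DU145-pc3.1+DY131, -0.33; the second DU145-Esrrb+DY131 library, -0.29).

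ARNTL stands high in a transcript property that went with the DY131 response across genes in DU145-Esrrb cells. Of its 50-base windows, 33.5% cross an exon junction, more than in 93.1% of tested genes. Across all 13665 genes with a value, the log2FC with DY131 in DU145-Esrrb cells went down as this share went up (Spearman's rho -0.374, across genes, which are not independent replicates), from a median of 0.26 in the tenth of genes with the smallest share to -0.55 in the tenth with the largest. In DU145-pc3.1 cells rho was 0.0103. After the counts were corrected for this share, the log2FC of ARNTL in DU145-Esrrb cells was -0.0031 (edgeR, adjusted p = 0.984) and the difference between the pools 0.064 (edgeR, adjusted p = 0.797). The trend is present in the DU145-Esrrb+DY131 libraries as a whole, so a change of ARNTL itself and this trend cannot be told apart.

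**Figure D3:**
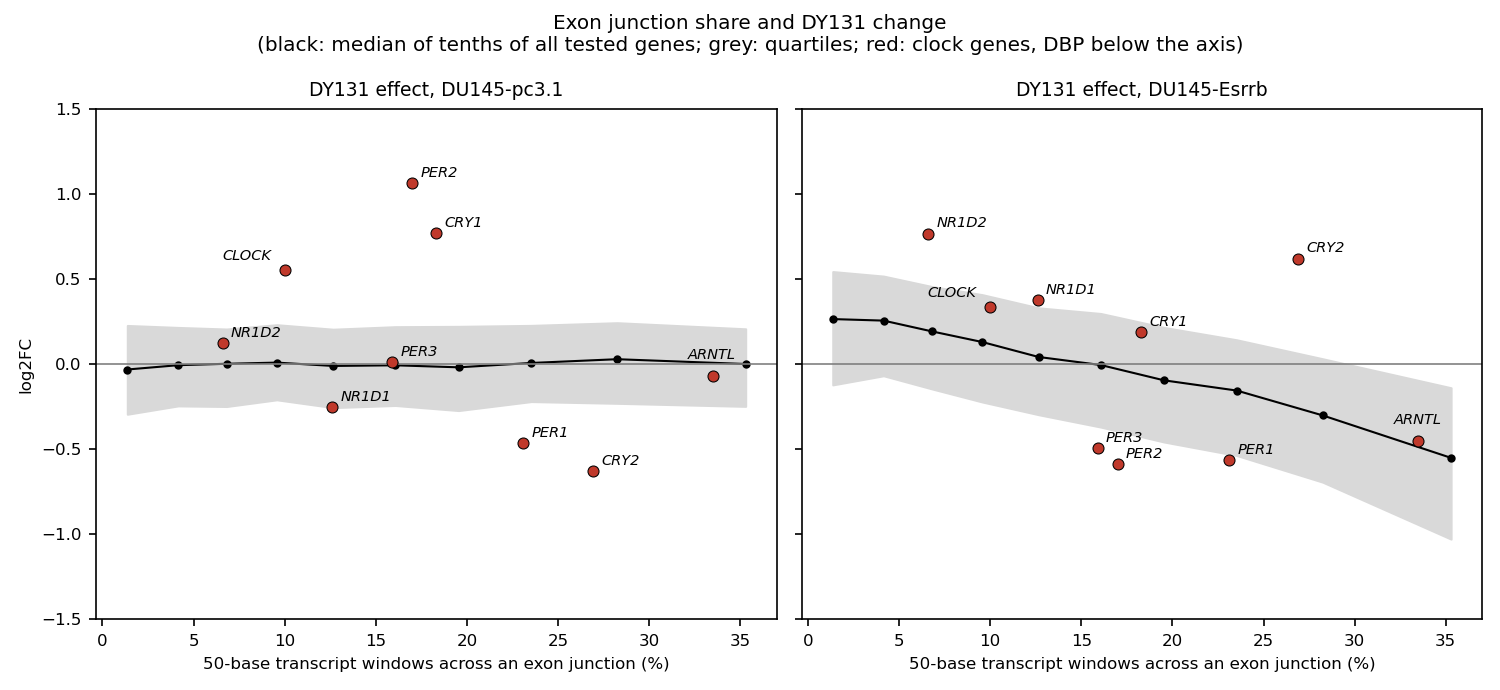
The x axis is the share of 50-base transcript windows that cross an exon junction, in percent, and the y axis the log2FC with DY131, for DU145-pc3.1 cells on the left and DU145-Esrrb cells on the right, the black line joins the medians of all tested genes in 10 classes of equal size, grey spans their quartiles, and red points are clock genes. On the right ARNTL (33.5% and -0.45) lies on the falling line, and NR1D2 (6.6% and 0.77) and CRY2 (26.9% and 0.62) lie above the quartiles, while DBP lies below the axis.

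The paralogs of the activators were NPAS2, which can stand in for CLOCK, and ARNTL2, which can pair with CLOCK. ARNTL2 was at 117 and 115 cpm in DU145-pc3.1, 126 and 130.8 in DU145-Esrrb, 178 and 200 in DU145-pc3.1+DY131, and 198 and 183 in DU145-Esrrb+DY131 cells. It thus rose with DY131 in both pools, with log2FC of 0.71 ± 0.067 (edgeR, adjusted p = 1.72e-06) and 0.57 ± 0.068 (edgeR, adjusted p = 3.73e-06). ARNTL2 has a larger share of junction windows than ARNTL, 40.0%, and with that correction its log2FC in DU145-Esrrb cells was 1.20 (edgeR, adjusted p = 4.32e-09). NPAS2, at 4.74 to 10.8 cpm, had log2FC of 0.37 and -0.30 with DY131 in the 2 pools (edgeR, adjusted p = 0.103 and 0.22). They differed by -0.67 (95% interval -1.24 to -0.10, edgeR, adjusted p = 0.0645), and NPAS2 passed this test of the difference in 3 of 15 alternatives. In DU145-pc3.1 cells its adjusted p by edgeR was 0.0355 without replicate 2 of DU145-pc3.1+DY131.

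In the repressor arm, the PER genes, whose proteins carry CRY into the repressive complex, gave 0 calls in any of the 4 comparisons by edgeR's quasi-likelihood test. Of all genes, 4.18% were called for Esrrb, 37.4% and 58.7% for DY131 in DU145-pc3.1 and DU145-Esrrb cells, and 33.7% for the difference. Of 12 PER tests, 3 had an unadjusted p under 0.05 (PER3 for Esrrb, and PER2 for DY131 in DU145-pc3.1 cells and for the difference). DESeq2 called 0 of the 12, and edgeR's exact test, which gives no difference of responses, called 1, PER2 in DU145-pc3.1 cells (adjusted p = 0.0404).

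PER1 was at 7.34 and 7.13 cpm in DU145-pc3.1, 5.26 and 6.25 in DU145-Esrrb, 7.10 and 3.27 in DU145-pc3.1+DY131, and 4.17 and 3.62 in DU145-Esrrb+DY131 cells. The 2 DU145-pc3.1+DY131 libraries disagreed, 1 close to the controls and 1 the lowest of all. The log2FC with DY131 was -0.47 (95% interval -1.01 to 0.076, edgeR, adjusted p = 0.166) and -0.57 (-1.19 to 0.063, edgeR, adjusted p = 0.112). These passed the test in 1 of 19 and in 4 of 17 alternatives. Without replicate 1 of DU145-pc3.1+DY131, the log2FC in DU145-pc3.1 cells was -1.13 (edgeR, adjusted p = 0.000711), and without replicate 2 it was -0.027 (edgeR, adjusted p = 0.932). In DU145-Esrrb cells PER1 passed the test without either of these libraries (edgeR, adjusted p = 0.0213 and 0.0224, at a log2FC of -0.57 in both).

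PER2 was the least abundant, with 9 and 14 reads (0.858 and 1.23 cpm) in DU145-pc3.1, 20 and 9 (1.70 and 0.827) in DU145-Esrrb, 30 and 16 (2.80 and 1.59) in DU145-pc3.1+DY131, and 4 and 10 (0.521 and 1.13) in DU145-Esrrb+DY131 cells. Both DU145-pc3.1+DY131 libraries lay above both controls, whereas the DU145-Esrrb libraries overlapped. The log2FC with DY131 was 1.06 ± 0.44 (edgeR, adjusted p = 0.0688) in DU145-pc3.1 and -0.59 ± 0.54 (edgeR, adjusted p = 0.367) in DU145-Esrrb cells, a difference of -1.65 (95% interval -3.13 to -0.17, edgeR, adjusted p = 0.0806). Without replicate 2 of DU145-pc3.1+DY131, the first was 1.40 (edgeR, adjusted p = 0.0114) and the difference -1.99 (edgeR, adjusted p = 0.0166). Without replicate 2 of DU145-Esrrb, the difference was -2.07 (edgeR, adjusted p = 0.0462). Of the 50-base windows of PER2, 1.4% also occur in other genes.

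PER3 was counted 26 and 26 times in DU145-pc3.1, 43 and 46 in DU145-Esrrb, 31 and 19 in DU145-pc3.1+DY131, and 22 and 24 in DU145-Esrrb+DY131 cells. The untreated DU145-Esrrb libraries, at 3.65 and 4.23 cpm, were above the other 6, at 1.88 to 2.89 cpm. The log2FC with Esrrb was 0.72 (95% interval 0.17 to 1.27, edgeR, adjusted p = 0.158). With DY131 it was 0.013 in DU145-pc3.1 cells (edgeR, adjusted p = 0.978) and -0.50 in DU145-Esrrb cells (95% interval -1.07 to 0.077, edgeR, adjusted p = 0.126), where both treated libraries lay below both untreated ones. The latter passed the test only with the length and GC correction (-0.70, edgeR, adjusted p = 0.0348). UTS2 overlaps 868 bases of PER3 on the other strand, and at most 1 read per library was counted on UTS2. The part of this overlap in the values of PER3 was not tested.

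CRY1 and CRY2, the cryptochromes that bind the CLOCK and ARNTL pair directly, differed from each other. CRY1 was at 7.91 and 8.62 cpm in DU145-pc3.1, 11.8 and 13.6 in DU145-Esrrb, 15.0 and 13.2 in DU145-pc3.1+DY131, and 12.4 and 16.3 in DU145-Esrrb+DY131 cells. Both DU145-pc3.1 libraries were therefore below the other 6, which overlapped. The log2FC was 0.61 ± 0.16 with Esrrb (edgeR, adjusted p = 0.0422), 0.77 ± 0.16 with DY131 in DU145-pc3.1 cells (edgeR, adjusted p = 0.00149) and 0.19 ± 0.15 with DY131 in DU145-Esrrb cells (edgeR, adjusted p = 0.316). The DY131 responses differed by -0.58 (95% interval -1.06 to -0.11, edgeR, adjusted p = 0.0541), which passed the test without replicate 2 of DU145-pc3.1+DY131 (-0.67, edgeR, adjusted p = 0.0167) or without the second DU145-Esrrb+DY131 library (-0.81, edgeR, adjusted p = 0.0287).

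The Esrrb call of CRY1 was lost when any 1 of the 4 compared libraries was left out. Its log2FC and edgeR adjusted p were 0.56 and 0.273 without replicate 1 of DU145-pc3.1, 0.68 and 0.172 without replicate 2, 0.72 and 0.114 without replicate 1 of DU145-Esrrb, and 0.51 and 0.314 without replicate 2. It was also lost without either DU145-Esrrb+DY131 library (0.61 in both, edgeR, adjusted p = 0.0511 and 0.0515) and with DESeq2 (adjusted p = 0.201). The DY131 call of CRY1 in DU145-pc3.1 cells held in all 19 alternatives, with a log2FC of 0.68 to 0.86.

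CRY2 was at 4.29 and 3.78 cpm in DU145-pc3.1, 4.07 and 3.22 in DU145-Esrrb, 2.61 and 2.58 in DU145-pc3.1+DY131, and 5.34 and 5.87 in DU145-Esrrb+DY131 cells, from 26 to 52 reads per library. DY131-treated libraries of the 2 pools lay on opposite sides of all 4 untreated libraries. The log2FC was -0.63 ± 0.24 in DU145-pc3.1 cells (edgeR, adjusted p = 0.0525) and 0.62 ± 0.22 in DU145-Esrrb cells (edgeR, adjusted p = 0.0252). The fall in DU145-pc3.1 cells passed the test in 4 of 19 alternatives. The difference of 1.25 (95% interval 0.55 to 1.95, edgeR, adjusted p = 0.0086) was the largest called among the 10 genes, and DESeq2 gave 1.25 with an adjusted p of 0.0869. The call in DU145-Esrrb cells was lost with DESeq2 (adjusted p = 0.169), without replicate 2 of DU145-Esrrb (0.46, edgeR, adjusted p = 0.173) and without either DU145-Esrrb+DY131 library (0.68 and 0.54, edgeR, adjusted p = 0.0581 and 0.147). The junction share of CRY2 is 26.9%, above that of 82.2% of tested genes, and with that correction its log2FC in DU145-Esrrb cells was 0.87 and the difference 1.51.

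NR1D2, which encodes REV-ERB beta, was among the most abundant clock genes. It was at 58.4 and 53.5 cpm in DU145-pc3.1, 58.6 and 58.6 in DU145-Esrrb, 58.2 and 63.7 in DU145-pc3.1+DY131, and 96.9 and 102.5 in DU145-Esrrb+DY131 cells. The last group stood apart from the other 6 libraries. The log2FC with DY131 was 0.77 ± 0.074 in DU145-Esrrb cells (edgeR, adjusted p = 4.49e-07) and 0.12 ± 0.076 in DU145-pc3.1 cells (edgeR, adjusted p = 0.222), and the difference was 0.64 (95% interval 0.42 to 0.87, edgeR, adjusted p = 0.000324). Both calls held in all 17 and 15 alternatives. With the exon junction correction the log2FC in DU145-Esrrb cells was 0.58 and the difference 0.44 (edgeR, adjusted p = 8.04e-06 and 0.00656).

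NR1D1, which encodes REV-ERB alpha, was at 16.6 and 13.5 cpm in DU145-pc3.1, 14.8 and 12.2 in DU145-Esrrb, 14.8 and 10.2 in DU145-pc3.1+DY131, and 18.2 and 17.1 in DU145-Esrrb+DY131 cells. DU145-Esrrb+DY131 cells again had the highest values, but the other groups overlapped. The log2FC with DY131 was 0.38 ± 0.17 in DU145-Esrrb (edgeR, adjusted p = 0.0671) and -0.25 ± 0.17 in DU145-pc3.1 cells (edgeR, adjusted p = 0.262), and they differed by 0.63 (95% interval 0.12 to 1.14, edgeR, adjusted p = 0.0541). Over the alternatives, the first passed in 5 of 17, the second in 1 of 19 and the difference in 5 of 15. Without replicate 1 of DU145-pc3.1+DY131 all 3 passed the test, at 0.37, -0.54 and 0.91 (edgeR, adjusted p = 0.015, 0.0134 and 0.00123). The difference also passed without replicate 2 of DU145-pc3.1 (0.78, edgeR, adjusted p = 0.0443) or replicate 1 of DU145-Esrrb (0.78, edgeR, adjusted p = 0.0492), and the response in DU145-Esrrb cells without replicate 2 of DU145-pc3.1+DY131 (0.38, edgeR, adjusted p = 0.0141). The 3′ end of NR1D1 overlaps that of THRA, a thyroid hormone receptor gene on the other strand, over 263 exon bases, and whether the counting kept strands apart was not stated. THRA fell with DY131 in both pools (log2FC -0.60 and -0.67, edgeR, adjusted p = 0.00125 and 0.000305), and its part in the values of NR1D1 was not tested.

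DBP, the D-box activator and a direct output of CLOCK and ARNTL, was counted 64 and 57 times in DU145-pc3.1 (6.10 and 5.01 cpm), 88 and 37 in DU145-Esrrb (7.46 and 3.40 cpm), 12 and 6 in DU145-pc3.1+DY131 (1.12 and 0.595 cpm), and 5 and 13 in DU145-Esrrb+DY131 cells (0.651 and 1.47 cpm). Every DY131-treated library lay below every untreated one, and the treated libraries of the 2 pools overlapped. The log2FC was -2.66 ± 0.44 in DU145-pc3.1 cells (95% interval -3.60 to -1.73, edgeR, adjusted p = 0.000233) and -2.32 ± 0.45 in DU145-Esrrb cells (-3.27 to -1.37, edgeR, adjusted p = 0.000358). The responses differed by 0.34, with a 95% interval of -1.19 to 1.87 (edgeR, adjusted p = 0.749), so that a difference of this width could not be detected at such counts. Esrrb without ligand gave a log2FC of -0.015 (95% interval -0.66 to 0.62, edgeR, adjusted p = 0.989), with 1 DU145-Esrrb library above and 1 below both controls.

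The fall of DBP held in all 18 alternatives in DU145-pc3.1 and all 16 in DU145-Esrrb cells that kept the gene, at log2FC of -3.18 to -2.29 and -3.05 to -1.64. In DU145-Esrrb cells it was smallest without replicate 1 of DU145-Esrrb (-1.64, edgeR, adjusted p = 0.00836) and largest without the second DU145-Esrrb+DY131 library (-3.05, edgeR, adjusted p = 0.00306). A filter of at least 10 counts in every library removed it. On chromosome 19 of GRCh38 (48630030 to 48637438, - strand), 661 of the 2229 transcript bases of DBP overlap exons of SPHK2 on the other strand. SPHK2, a sphingosine kinase gene, was at 8.47 to 10.2 cpm in all 8 libraries and was not called in any comparison (edgeR, adjusted p of 0.522 to 0.983). The part of this overlap in the values of DBP was not tested. The junction share of DBP is 6.7%, larger than in 24.7% of tested genes, and with that correction its log2FC in DU145-Esrrb cells was -2.51.

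Beyond these, 27 further genes of the clock pathway were listed by their roles, and 21 of them passed the filter. RORB, BHLHE41, C1orf51 (CIART), HLF, FBXL21 and PPARGC1A did not, with at most 13 reads in any library. With DY131 in DU145-pc3.1 cells 6 rose, 5 fell and 10 did not pass the test, where 37.4% of all genes were called. In DU145-Esrrb cells 9 rose, 5 fell and 7 did not pass, where 58.7% of all genes were called. BHLHE40 was past both thresholds there, as were 12% of all genes. Esrrb alone gave 0 calls among the 21 by edgeR's quasi-likelihood test, where 4.18% of all genes were called. At an unadjusted p under 0.05 there were 5, and edgeR's exact test and DESeq2 each called 0. The difference of the DY131 responses was called for 9, of which 6 were higher and 3 lower, where it was called for 33.7% of all genes. The median log2FC of the list was 0.13 in DU145-pc3.1 and 0.16 in DU145-Esrrb cells, against -0.0026 and -0.0045 over all genes.

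RORA, a receptor that activates ARNTL at ROREs, was not called in any comparison (edgeR, adjusted p of 0.135 to 0.781). BHLHE40, a repressor at E-boxes, was at 154 and 151 cpm in DU145-pc3.1, 130.9 and 138 in DU145-Esrrb, 89.8 and 93.0 in DU145-pc3.1+DY131, and 63.7 and 69.7 in DU145-Esrrb+DY131 cells. It thus fell with DY131 in both pools, by log2FC of -0.74 ± 0.064 (edgeR, adjusted p = 6.79e-07) and -1.01 ± 0.068 (edgeR, adjusted p = 1.01e-08). In DU145-Esrrb cells it was just short of a log2FC of 1 without replicate 2 of DU145-Esrrb (-0.98) or without the first DU145-Esrrb+DY131 library (-0.95). The response was larger in DU145-Esrrb cells by -0.27 (95% interval -0.47 to -0.071, edgeR, adjusted p = 0.0365). That difference lost the call with DESeq2 (-0.27, adjusted p = 0.104) and, at edgeR adjusted p of 0.0545 to 0.165, without any 1 of the 4 untreated libraries (-0.31 to -0.24) or without the first DU145-Esrrb+DY131 library (-0.21).

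TEF, a D-box activator related to DBP, and NFIL3, the D-box repressor, were picked out after their values were seen. TEF was at 13.8 and 10.6 cpm in DU145-pc3.1, 10.1 and 10.8 in DU145-Esrrb, 6.63 and 7.63 in DU145-pc3.1+DY131, and 10.4 and 9.83 in DU145-Esrrb+DY131 cells. NFIL3 was at 57.6 and 59.1, 49.8 and 50.2, 40.0 and 44.4, and 53.3 and 51.4 cpm in the same order. Both fell with DY131 in DU145-pc3.1 cells (log2FC -0.78 ± 0.17 and -0.47 ± 0.077, edgeR, adjusted p = 0.00174 and 0.000222), with no overlap of treated and control libraries. In DU145-Esrrb cells their log2FC were -0.043 and 0.066 (edgeR, adjusted p = 0.839 and 0.488). The differences, 0.73 for TEF and 0.54 for NFIL3 (edgeR, adjusted p = 0.0251 and 0.00172), were lost with the exon junction correction (0.46 and 0.24, edgeR, adjusted p = 0.169 and 0.126). That of TEF was also lost with DESeq2 (0.73, adjusted p = 0.138) and when any 1 of 6 libraries was left out (0.53 to 0.77, edgeR, adjusted p of 0.0503 to 0.128), the exceptions being replicate 2 of DU145-pc3.1 and replicate 2 of DU145-pc3.1+DY131. NFIL3 kept its call in the other 14 of 15 alternatives. DBP, by contrast, fell in both pools.

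**Figure D4:**
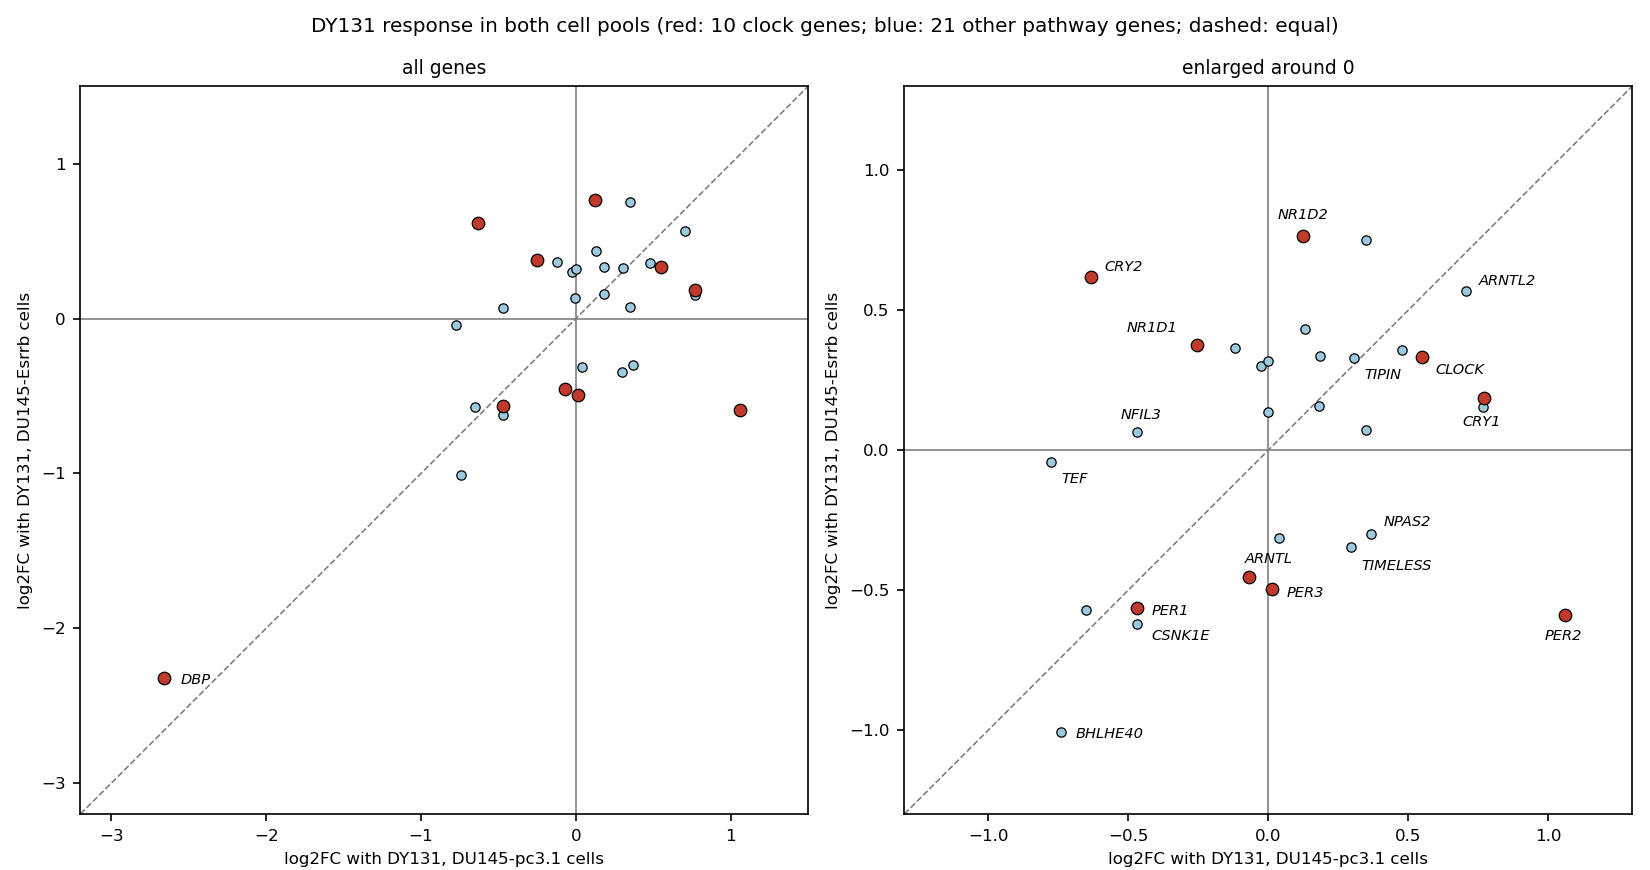
The x axis is the log2FC with DY131 in DU145-pc3.1 cells and the y axis that in DU145-Esrrb cells, for all these genes on the left and enlarged around 0 on the right, with red points for the 10 clock genes, blue points for the 21 other pathway genes and a dashed line at equal values. DBP (-2.66 and -2.32) lies far below 0 on both axes, and CRY2 (-0.63 and 0.62) and NR1D2 (0.12 and 0.77) lie above the dashed line.

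Of the other roles, both TIMELESS and TIPIN, which act at the replication fork, rose in DU145-pc3.1 cells, while in DU145-Esrrb cells TIPIN rose and TIMELESS fell. TIMELESS had log2FC of 0.30 and -0.35 (edgeR, adjusted p = 0.000986 and 0.000178), which differed by -0.64 (edgeR, adjusted p = 4.69e-05). The fall was lost with the exon junction correction (-0.087, edgeR, adjusted p = 0.246), while the difference kept its call in all 15 alternatives, at -0.74 to -0.37. TIPIN had log2FC of 0.31 and 0.33 (edgeR, adjusted p = 0.0189 and 0.00825). The first was lost with DESeq2 (adjusted p = 0.0677), without either DU145-pc3.1 library or without replicate 2 of DU145-pc3.1+DY131 (0.16 to 0.34, edgeR, adjusted p of 0.0587 to 0.17). The other was lost without replicate 1 of DU145-Esrrb or the first DU145-Esrrb+DY131 library (both 0.28, edgeR, adjusted p = 0.074 and 0.0805). Of 5 kinases that phosphorylate clock proteins, 1 rose and 1 fell in DU145-pc3.1 cells, and 3 rose and 2 fell in DU145-Esrrb cells. CSNK1E, which marks PER proteins for breakdown, fell in both pools (log2FC -0.47 and -0.62, edgeR, adjusted p = 4.73e-05 and 1.11e-06). Of its 50-base windows, 48.9% are shared with TPTEP2-CSNK1E, a readthrough gene that overlaps it by 1316 exon bases on the same strand, so its reads cannot be assigned to CSNK1E alone. Of 3 tested genes that add or remove ubiquitin, 1 rose in DU145-pc3.1 and 2 in DU145-Esrrb cells. Of 5 regulators and outputs tested, 1 rose and 1 fell in DU145-pc3.1, and 2 rose and 1 fell in DU145-Esrrb cells. Of all genes, 37.4% and 58.7% were called in the 2 pools, and these short lists were not tested against those shares.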

How the data were processed

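The authors made TruSeq Stranded mRNA libraries, sequenced 50-base single reads in 1 lane, used the FASTX-Toolkit for trimming and TopHat2 for mapping (hg18), and deposited raw counts per gene from MULTICOM-MAP. How strands and reads with several matches were counted was not stated. Counts were tested in R 4.3.3 with edgeR 4.0.16 (TMM, quasi-likelihood F test, all 4 groups in 1 model, Benjamini-Hochberg adjustment over 13856 genes). Genes were also counted at an absolute log2FC of at least 1. Cpm use effective library sizes. DESeq2 1.42.0, edgeR's exact test, other scalings, filters, gene bias corrections and leaving out each library were alternatives. The steps were tested on simulated counts with the same spread for all genes and only large planted changes. That test does not cover changes as small as most of those reported here.

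Clock genes, other pathway genes and tests were chosen with earlier results of these data known. Named are all 10 clock genes, NPAS2, ARNTL2 and BHLHE40, other pathway genes past both thresholds, and genes singled out later (TEF, NFIL3, CSNK1E, TIMELESS, TIPIN). Some genes of the lists are not reported here and were left out of the list counts. Transcript features and positions come from GENCODE 29 on GRCh38 (22018 genes matched by RefSeq identifier, 721 by symbol, 147 by an older symbol, 505 unmatched). The 2 columns of DU145-Esrrb+DY131 share a heading, and deposited column numbers differ from some sample titles. The standard errors and 95% intervals were derived from the log2FC and the F statistic of edgeR's test, which includes the spread between replicates. The floor of 3 reads corresponds to 0.260 to 0.382 cpm. Figures were drawn with matplotlib 3.10.9.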

Additional observations from a re-analysis of the deposited data

Results flagged for a closer look

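Of the named genes, 7 had DY131 responses that differed between DU145-Esrrb and DU145-pc3.1 cells by the test of the difference itself. This was edgeR's quasi-likelihood test of the interaction, at an adjusted p under 0.05. It called 3 of the 10 clock genes and 9 of the 21 other pathway genes, where 33.7% of all genes were called. Not all of these 9 are named here, and TEF, NFIL3 and TIMELESS were named only after their values were seen. The log2 difference, DU145-Esrrb minus DU145-pc3.1, was 1.25 for CRY2, 0.64 for NR1D2 and -0.38 for ARNTL. Among the other pathway genes it was -0.27 for BHLHE40, 0.73 for TEF, 0.54 for NFIL3 and -0.64 for TIMELESS. CRY2 had log2FC of -0.63 and 0.62 in the 2 pools, all treated libraries lying below the untreated ones in the first and above in the other. The differences of ARNTL, CRY2, BHLHE40 and TEF lost the call with DESeq2, and those of ARNTL, BHLHE40 and TEF in 5, 5 and 6 of the 8 fits without 1 library. Those of NR1D2 and TIMELESS kept it in all 15 alternatives. ARNTL, TEF and NFIL3 lost the call with the exon junction correction, and the part of the junction trend in their values was not separated from a change of the genes. Groups of 2 libraries allow no test for a library far from its group.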

How the results depend on the processing

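The falls of DBP with DY131, the rises of CLOCK and CRY1 in DU145-pc3.1 cells and the rise of NR1D2 in DU145-Esrrb cells kept their calls in every alternative that kept the gene. Of the 10 clock genes, the number called for Esrrb went from 1 to 0 with DESeq2 and in the 6 numbered libraries with or without the replicate block, to 2 with only the 4 libraries compared, and lay between 0 and 2 when 1 library was left out. In DU145-pc3.1 cells it went from 3 to 5 with the exact test and lay between 3 and 5 with 1 library out. In DU145-Esrrb cells it was 5, and lay between 4 and 7 over the alternatives and also with 1 library out. For the difference it went from 3 to 1 with DESeq2, 6 without a filter and 5 with the length and GC correction. Past both thresholds, the count in DU145-pc3.1 cells went from 1 to 2 with the exact test or without a filter, to 0 with at least 10 counts in every library, and to between 1 and 2 with 1 library out. In DU145-Esrrb cells that filter gave 0 in place of 1. For the difference past both thresholds it went from 1 to 0 with DESeq2, 2 without a filter and between 1 and 2 with 1 library out. Among the other pathway genes, calls for Esrrb went from 0 to 4 with only the 4 libraries compared (0 to 4 with 1 library out), and for the difference from 9 to 5 with the exon junction correction (4 to 12 with 1 library out). Past both thresholds they went in DU145-pc3.1 cells from 0 to 1 without a filter (0 to 1 with 1 library out), and in DU145-Esrrb cells from 1 to 2 with the exon junction correction (0 to 1 with 1 library out). Over all genes, calls for Esrrb went from 579 to 1209 with only the 4 libraries compared, 948 without a filter, 317 with DESeq2, and 140 to 1523 with 1 library out. Those for the difference went from 4674 to 2897 with DESeq2 and 3077 with the exon junction correction. With only the 4 libraries compared, those for DY131 went from 5185 to 4148 in DU145-pc3.1 and from 8128 to 8980 in DU145-Esrrb cells. The deviations of same-numbered libraries from their group means had correlations of 0.0826, 0.0265 and -0.0694, so the numbers were not used as pairs. Beyond the counts in the text, the replicate block changed no other clock gene call, and the cause of these shifts was not tested.

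Signs turned mostly in values near 0. With the exon junction correction the difference became 0.064 for ARNTL, 0.066 for PER1 and 0.48 for ARNTL2, and NFIL3 in DU145-Esrrb cells became -0.20 (adjusted p = 0.0428 by edgeR). The difference of TIPIN turned to -0.00060 under library size alone and to -0.015 where every library had to hold 10 counts, and also without replicate 2 of DU145-pc3.1 (-0.0074), replicate 1 of DU145-Esrrb (-0.024) or the first DU145-Esrrb+DY131 library (-0.034). PER3 with DY131 in DU145-pc3.1 cells became -0.022 with library size alone and -0.13 with the length and GC correction. With 1 library out, log2FC for Esrrb spanned -0.34 to 0.69 for PER2, -0.32 to 0.016 for CRY2, -0.29 to 0.012 for NR1D1, -0.029 to 0.065 for TIPIN (-0.011 without replicate 1 of DU145-pc3.1) and -0.70 to 0.43 for DBP (0.13 without replicate 1 of DU145-pc3.1). Those with DY131 in DU145-pc3.1 cells spanned -0.14 to 0.0068 for ARNTL and -0.33 to 0.28 for PER3 (-0.047 without replicate 2 of DU145-pc3.1), and those in DU145-Esrrb cells -1.28 to 0.029 for PER2 and -0.038 to 0.36 for CRY1. The difference spanned -0.54 to 0.56 for PER1, -0.12 to 0.16 for TIPIN and -0.40 to 1.03 for DBP, with 0.017 and -0.11 without replicate 2 of DU145-Esrrb and -0.032 for DBP without replicate 2 of DU145-pc3.1+DY131. With 2 libraries a group, smaller changes of the PER genes may have gone undetected, most of all those of PER2 with its 4 to 30 reads.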
